A study of Rattus norvegicus with 15 samples.

Results

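The genes described here make up the antigen presentation machinery of the rat: every gene of the table whose symbol starts with RT1-, the name of the rat major histocompatibility complex, together with B2m, Tap1, Tap2, Tapbp, Psmb8, Psmb9, Psmb10, Ciita, Cd74 and Erap1. These are 59 of the 17055 genes in the table, 49 of them RT1 genes and 10 others, and Nlrc5, which also belongs to the set by its role, is not analysed here. By role they were 39 class I chains (3 RT1-A, 15 RT1-C and 21 of the RT1-M, -N, -O, -S and -T series), B2m, 4 genes of peptide supply and loading, 3 immunoproteasome subunits, 1 regulator (Ciita) and 11 class II genes including Cd74.

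Pancreatic islets of Sprague-Dawley rats aged 10 days were dispersed, and the cells received either a control microRNA mimic or a mimic of miR-17-5p. Poly(A) RNA was sequenced from 3 control and 5 miR-17-5p preparations. RNA bound by Ago2, the protein that holds a microRNA on its target RNA, was recovered with an antibody and sequenced from 3 control and 4 miR-17-5p preparations. The preparations held all cells of the islet, so values are averages over beta cells and the other cells present, and fewer cells of a type cannot be told apart from less RNA per cell. Nothing in the labels states that replicates came from separate animals beyond the word biological, so p-values measure the spread between these preparations.

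Class I molecules carry peptides of the cell's own proteins to its surface, where cytotoxic T cells read them. Peptides are cut by the proteasome, whose catalytic subunits are exchanged for Psmb8, Psmb9 and Psmb10 in cells exposed to interferon, pumped into the endoplasmic reticulum by Tap1 and Tap2, trimmed by Erap1 and loaded with the help of Tapbp onto a heavy chain paired with B2m. Class II molecules, guided by the invariant chain Cd74 and switched on by Ciita, present proteins taken up from outside and are typical of macrophages, dendritic cells and B cells. High class I on islet cells is a known feature of autoimmune diabetes.

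The added microRNA is shown because it defines the treatment. The mature sequence is from RefSeq (GRCr8, chr15:98587861-98587883, plus strand), with the seed, bases 2 to 8, in capitals.

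rno-miR-17-5p: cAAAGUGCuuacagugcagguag

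Promoters from RefSeq (GRCr8), 250 bases before and 50 after the start of the gene, were held for 49 of the 59 genes. The promoters of 4 genes are printed because their values part from each other below: B2m (chr3:129549080-129549379, plus strand), the class I heavy chain RT1-A2 (chr20:4872621-4872920, plus strand), the class I gene RT1-M3-1 (chr20:1333317-1333616, minus strand) and the immunoproteasome subunit Psmb8 (chr20:4656982-4657281, minus strand). Capitals mark, on either strand, GGGATTCCC (an NF-kB type motif), TTTCACTT and TTCNNTTTC (forms of the interferon-stimulated response element), TGACG (part of the X2 box or of a CRE) and CCAAT (the Y box). Capitals run together where motifs overlap, as both interferon forms do in Psmb8.

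B2m: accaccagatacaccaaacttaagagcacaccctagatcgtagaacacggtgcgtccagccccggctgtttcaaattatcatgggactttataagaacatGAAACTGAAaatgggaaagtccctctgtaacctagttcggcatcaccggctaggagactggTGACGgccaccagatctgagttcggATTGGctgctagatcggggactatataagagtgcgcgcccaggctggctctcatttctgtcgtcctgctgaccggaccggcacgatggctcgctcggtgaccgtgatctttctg

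RT1-A2: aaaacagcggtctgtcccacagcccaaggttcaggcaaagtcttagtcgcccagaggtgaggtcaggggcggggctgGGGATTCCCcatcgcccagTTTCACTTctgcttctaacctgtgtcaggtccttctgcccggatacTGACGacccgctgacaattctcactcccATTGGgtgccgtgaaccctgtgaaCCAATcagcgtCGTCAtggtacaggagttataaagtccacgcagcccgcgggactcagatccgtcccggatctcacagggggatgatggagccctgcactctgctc

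RT1-M3-1: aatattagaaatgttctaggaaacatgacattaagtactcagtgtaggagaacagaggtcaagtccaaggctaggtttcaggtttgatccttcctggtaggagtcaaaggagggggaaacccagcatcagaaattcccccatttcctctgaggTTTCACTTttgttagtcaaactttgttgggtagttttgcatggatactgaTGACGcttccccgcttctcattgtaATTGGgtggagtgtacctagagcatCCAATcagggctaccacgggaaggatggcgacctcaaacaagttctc

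Psmb8: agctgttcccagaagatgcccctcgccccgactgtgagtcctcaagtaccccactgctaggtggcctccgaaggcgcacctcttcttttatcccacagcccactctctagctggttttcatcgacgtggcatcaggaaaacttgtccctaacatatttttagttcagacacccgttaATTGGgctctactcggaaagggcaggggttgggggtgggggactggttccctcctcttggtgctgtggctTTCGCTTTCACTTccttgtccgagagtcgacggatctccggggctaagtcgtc

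In these letters B2m held the spaced interferon form but neither GGGATTCCC nor TTTCACTT, whereas RT1-A2 held both of the latter. Other forms of an NF-kB motif were not searched for, so the absence of GGGATTCCC does not show that B2m lacks one. GGGATTCCC stood in 8 of the 49 promoters, all of them class I RT1-A or RT1-C genes, against 0.365% of all 33469 promoters of the table. TTTCACTT stood in 17 of the 49, of which 13 were class I genes, against 1.73% of all promoters. TTCNNTTTC was found in 9 of the 49, against 9.71%. CCAAT was found in 34, among them all 10 promoters of class II genes and Cd74, against 37.5%, and TGACG in 12, against 21.2%. A match describes letters, not a bound site, and a link between motifs and values was not tested.

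Libraries held 3379456 to 21056240 counts in genes for poly(A) RNA and 4185123 to 13420403 for Ago2-bound RNA. Alignments that were not unique, which the counting left out, made up as much as 31.2% of a library, and RT1 genes resemble each other closely, so the value of a single RT1 gene is uncertain. Beta cell markers, insulin genes included, summed to 257348 to 476958 CPM (counts scaled to library size) in poly(A) libraries and to 11143 to 23917 CPM in Ago2 libraries. Markers of stellate cells and fibroblasts were called higher with miR-17-5p in poly(A) RNA for 7 of 11 tested genes, where 3.11% of all genes tested were. Markers of macrophages and leukocytes lay above 0 for 16 of 16, where 5618 of all 11077 genes did. Of beta cell markers 6 of 6 lay below 0, and of other islet endocrine markers 5 of 6, where 5459 of all genes did.

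Class I, B2m and the loading machinery were detected in poly(A) RNA of both groups, while class II was scarce. All poly(A) libraries held counts of 28 of the 59 genes, and 14 RT1 genes were at 0 in all 15 libraries. Tap2, the partner of Tap1 in the peptide pump, had a single count in all poly(A) libraries. With every library reduced to 3379456 counts, poly(A) libraries held 32.6 to 40.0 of the genes. Control Ago2 libraries held 8.39 to 10.1 and miR-17-5p Ago2 libraries 19.4 to 24.6, and these ranges did not overlap. The whole table had the same order, with 5480 to 7041 genes in control Ago2 libraries and 8878 to 10607 in those with miR-17-5p.

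**Figure D1:**
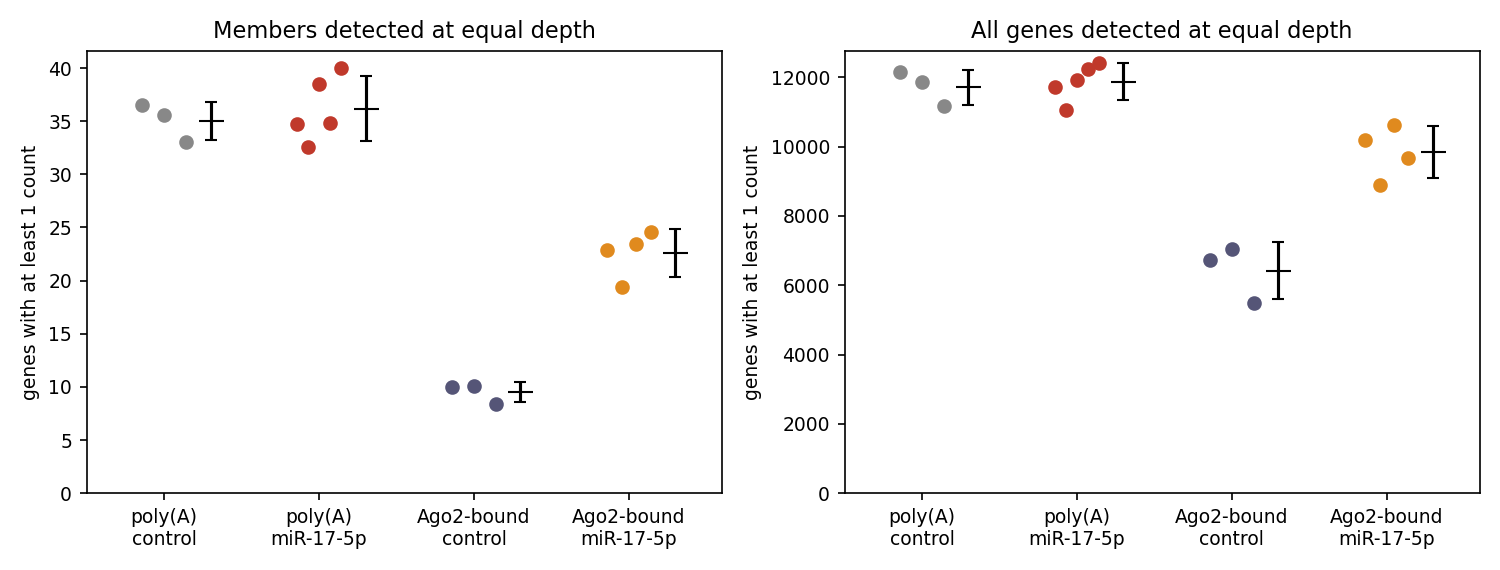
Number of the 59 antigen presentation genes (left) and of all genes (right) with at least 1 count after each library was reduced to 3379456 counts. Points are libraries and black marks the mean with SD. Control Ago2 libraries lie lowest in both panels, at 8.39 to 10.1 of the antigen presentation genes.

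Treatment with miR-17-5p was first compared with the control mimic in poly(A) RNA, which asks whether the machinery changed in the cells. None of the 30 members tested was called at an adjusted p under 0.05 by edgeR's quasi-likelihood test, where 3.87% of all 11077 genes tested were (3.11% higher and 0.767% lower). At an unadjusted p under 0.05 there were 3, namely B2m on the higher side and RT1-CE16 and RT1-A3 on the lower, where 2100 of the 11077 genes passed that threshold. DESeq2's Wald test and limma-voom each called 1 member, B2m, where they called 8.01% and 9.04% of all genes tested. The median log2 fold change was -0.07 over the 30 genes and 0.01 over all genes tested.

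Class I heavy chains showed values on both sides of 0. Of 19 tested, 6 lay above 0 and 13 below, with a median log2 fold change of -0.15. RT1-A2, a classical heavy chain, had 94.8, 116 and 87.7 CPM in control replicates 1, 2 and 3. With miR-17-5p it had 56.5, 119, 90.3, 80.6 and 98.2 CPM in replicates 1, 2, 4, 5 and 6. The groups overlapped, and the log2 fold change was -0.17 ± 0.20 (SE; edgeR adjusted p = 0.706).

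RT1-A1, a neighbouring classical chain, had 38.0, 42.5 and 48.4 CPM in controls and 28.1, 58.8, 28.9, 27.8 and 33.3 CPM with miR-17-5p. In 4 of 5 treated libraries it lay below all controls, and replicate 2 lay above them. The log2 fold change was -0.27 ± 0.24 (edgeR adjusted p = 0.592). RT1-A3 had 7.51, 10.8 and 16.8 CPM in controls and 5.55, 6.07, 7.33, 8.26 and 8.04 CPM with miR-17-5p. Overlap was limited to the lowest control, and the log2 fold change of -0.71 ± 0.32 did not pass the test (edgeR adjusted p = 0.252).

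In the RT1-C group, which holds nonclassical class I chains, RT1-CE5 had the most counts. It had 63.0, 57.4 and 49.9 CPM in controls and 37.7, 105, 52.8, 55.1 and 69.4 CPM with miR-17-5p, so the treated libraries surrounded the controls. RT1-CE16 lay lower in most treated libraries, with 21.1, 31.2 and 26.2 CPM in controls against 6.25, 11.1, 18.8, 17.4 and 23.7 CPM. Its log2 fold change was -0.77 ± 0.35 (edgeR adjusted p = 0.249).

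RT1-S3 varied within both groups, at 84.4, 45.0 and 87.0 CPM in controls and 24.6, 64.4, 29.5, 67.1 and 70.0 CPM with miR-17-5p. RT1-M3-1, a nonclassical class I gene whose mouse counterpart presents formylated peptides, had 16.2, 15.4 and 24.6 CPM in controls and 15.8, 18.2, 9.12, 12.7 and 16.1 CPM with miR-17-5p. Neither passed the test, with log2 fold changes of -0.49 ± 0.37 and -0.36 ± 0.27. RT1-M6-2 was the only member whose groups did not overlap in poly(A) RNA: at most 1.71 CPM with miR-17-5p and at least 1.97 CPM in controls. Across all genes tested, 6.68% were lower and 8.51% higher without overlap.

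B2m, the light chain shared by all class I molecules, had 535, 658 and 526 CPM in control replicates 1, 2 and 3. With miR-17-5p it had 522 CPM in replicate 1 and 1160, 885, 1057 and 1053 CPM in replicates 2, 4, 5 and 6. Replicate 1 sat among the controls and the other 4 treated libraries lay above all of them. The log2 fold change was 0.71 ± 0.22 (edgeR adjusted p = 0.0969), and over the alternatives tried the adjusted p ran from 0.00336 to 0.911. Without miR-17-5p replicate 1 the log2 fold change was 0.86 and the adjusted p 0.00336 by the same test.

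Counts of B2m relative to its heavy chains differed more clearly between groups than B2m itself, and a ratio within a library does not depend on scaling. There were 1.29, 1.65 and 1.33 B2m counts per class I count in controls. With miR-17-5p there were 2.36, 2.43, 2.90, 3.07 and 2.59. The groups did not overlap, and replicate 1, where B2m alone was at the control level, had the summed class I at 221 CPM, below the 395 to 415 CPM of controls. This ratio was chosen after the values were seen and is given without a test.

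In poly(A) RNA the ratio was higher with miR-17-5p for each heavy chain family. B2m counts per RT1-A count were 3.44 to 3.88 in controls and 5.79 to 9.06 with miR-17-5p. Per RT1-C count they were 4.00 to 5.27 against 7.29 to 9.44, and per count of the remaining class I genes 3.69 to 6.93 against 8.09 to 10.8. Against Tapbp, which is no heavy chain, the ratio was 4.92 to 7.04 in controls and 9.34 to 13.1 with miR-17-5p. None of these 4 pairs of ranges overlapped between the groups. Per count of the single gene RT1-CE5 the ranges did overlap, at 8.50 to 11.5 and 11.1 to 19.2. All these ratios share the B2m counts, and the families are parts of the class I sum. They are thus not separate support for the ratio above and are given without a test. How often ratios of other genes separate the groups was not tested. In Ago2-bound RNA the ranges of B2m per class I count overlapped, at 0.658 to 1.69 in controls and 1.48 to 2.97 with miR-17-5p. B2m counts per Tapbp count there were 5.98 ± 4.97 in controls and 3.79 ± 1.44 with miR-17-5p (SD, n = 3 and 4), the opposite order to poly(A) RNA, with ranges that overlapped.

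**Figure D2:**
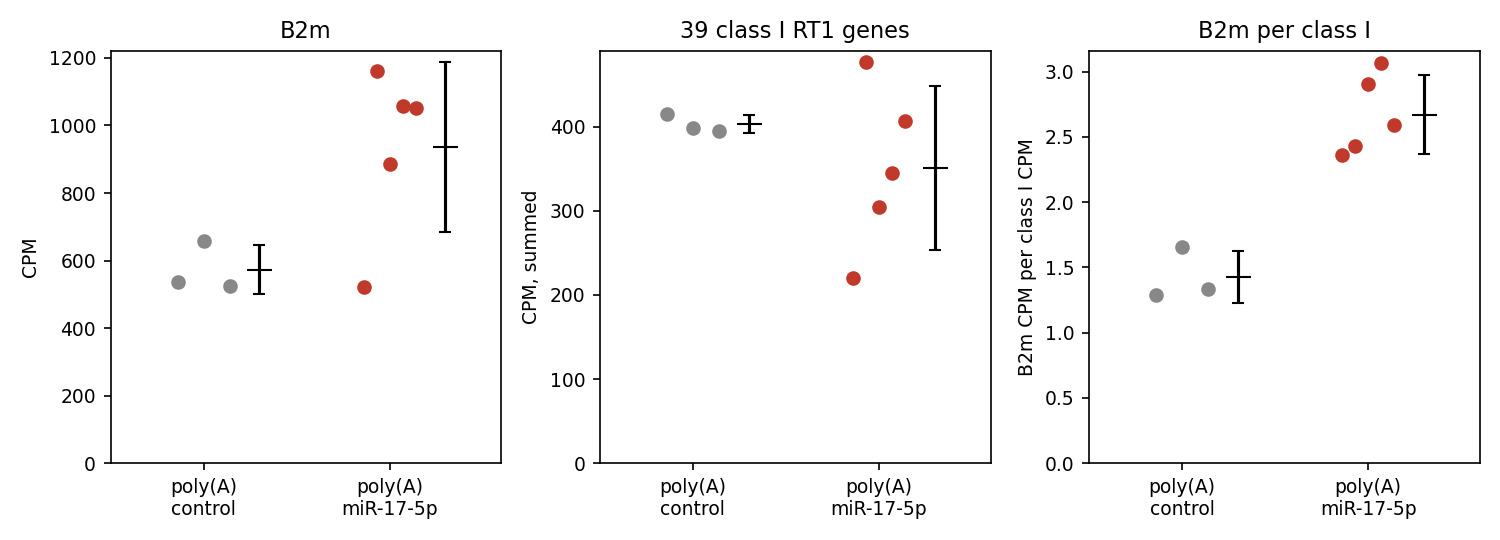
B2m (left, CPM), the summed CPM of the 39 class I RT1 genes (middle) and the ratio of both (right) in each poly(A) library, with the mean and SD in black. Only the ratio separates the groups fully, at 1.29 to 1.65 in controls and 2.36 to 3.07 with miR-17-5p.

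Of the genes of peptide supply and loading, Tapbp, the tapasin that bridges the pump and the heavy chain, had 109, 93.5 and 80.2 CPM in controls and 55.7, 88.7, 69.4, 113 and 96.8 CPM with miR-17-5p. Tap1, the detected subunit of the pump, had 39.6, 18.3 and 26.2 CPM in controls and 20.4, 26.8, 18.1, 29.7 and 31.2 CPM with miR-17-5p. In both genes the groups overlapped. Erap1, the aminopeptidase that trims peptides, had 21.9, 16.9 and 22.5 CPM against 20.7, 28.5, 32.4, 23.9 and 29.7 CPM. In 4 of 5 treated libraries Erap1 lay above all controls, and its log2 fold change was 0.41 ± 0.21 (edgeR adjusted p = 0.309).

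Immunoproteasome subunits did not separate the groups. Psmb8 had 40.8, 30.8 and 25.6 CPM in controls and 25.9, 90.8, 38.1, 39.6 and 52.1 CPM with miR-17-5p, with replicate 2 the highest. Psmb9 had 34.7, 18.6 and 24.6 CPM in controls and 15.2, 43.8, 26.0, 21.6 and 33.3 CPM with miR-17-5p. Psmb10 had 42.3, 28.2 and 20.0 CPM against 34.9, 34.1, 21.1, 28.8 and 30.4 CPM. Each subunit replaces a constitutive one, and counts per constitutive partner overlapped too. Psmb8 per Psmb5 was 0.240 to 0.455 in controls and 0.243 to 0.819 with miR-17-5p, and Psmb9 per Psmb6 was 0.261 to 0.266 and 0.111 to 0.432.

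**Figure D3:**
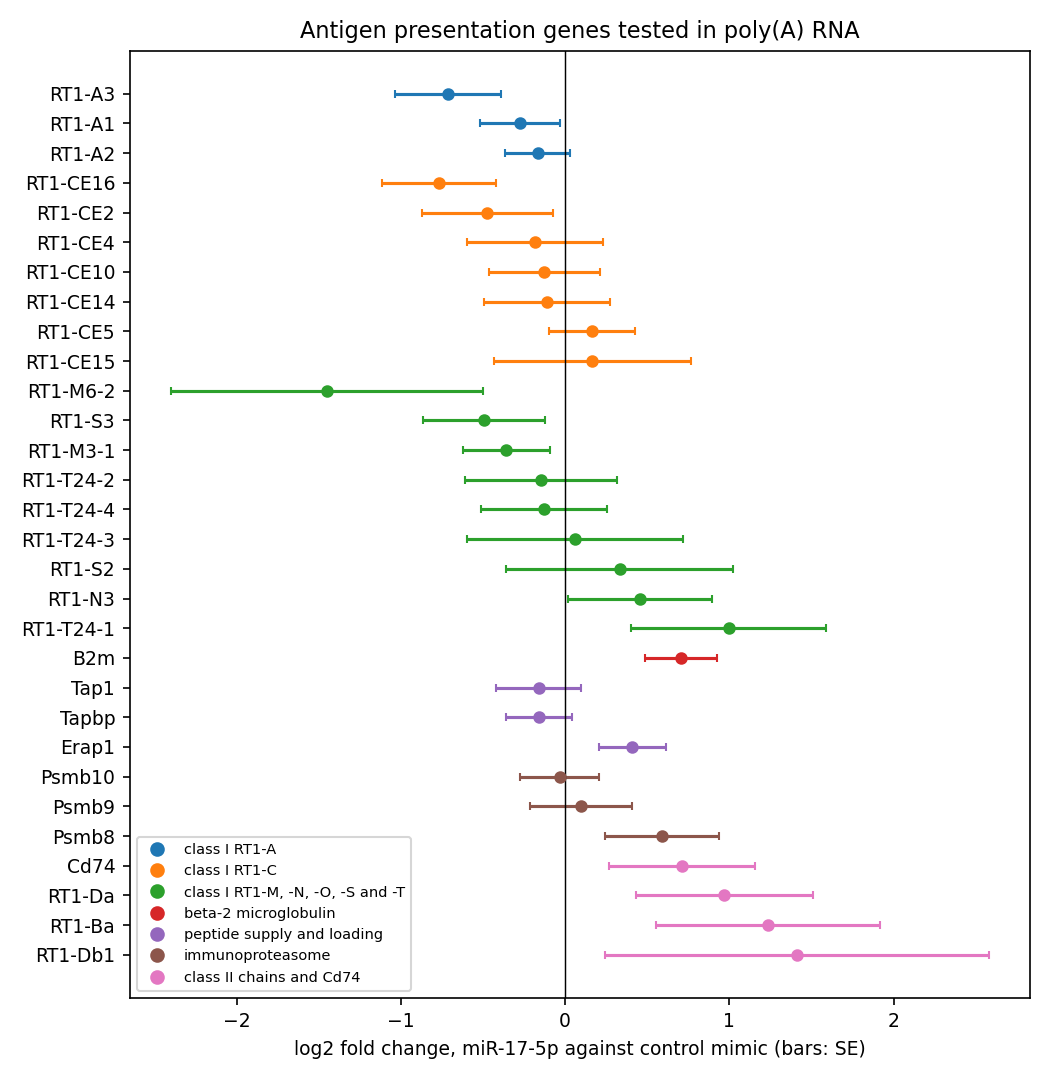
Log2 fold change of the 30 tested genes in poly(A) RNA, miR-17-5p against control mimic, with bars of 1 SE and colours for the role. B2m has a log2 fold change of 0.71 while 13 of 19 class I chains lie below 0, and no gene passed an adjusted p of 0.05.

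Class II genes were few in counts. Ciita, the switch of class II transcription, reached at most 1.75 CPM in any poly(A) library and was not tested. Cd74, which escorts class II chains, had 25.5, 21.7 and 8.42 CPM in controls and 11.8, 37.3, 35.3, 22.6 and 50.04 CPM with miR-17-5p. The groups overlapped, with a log2 fold change of 0.71 ± 0.44 (edgeR adjusted p = 0.429). RT1-Ba and RT1-Da, alpha chains of the class II molecules, had log2 fold changes of 1.24 ± 0.68 and 0.97 ± 0.54, and both had their highest value in miR-17-5p replicate 6, at 11.3 and 12.3 CPM. Without that replicate the log2 fold changes were 0.56 and 0.52. All 4 class II genes tested lay above 0 and none was called.

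Macrophage and leukocyte markers had a summed level of 74.1, 243 and 55.2 CPM in controls and 119, 221, 346, 249 and 322 CPM with miR-17-5p. Of 16 markers 16 lay above 0 and 2 were called, Cd163 and Mrc1. Of all 11077 genes tested 5618 lay above 0 and 3.87% were called. In controls 0 to 2 of the 16 markers were at 0, and in treated libraries none was. Lymphocyte markers summed to 7.49 to 16.6 CPM in controls and 8.02 to 25.3 CPM with miR-17-5p. The part of these cells in the values of Cd74 and the class II chains was not tested.

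Genes around the pathway were counted in poly(A) RNA, where 3.87% of all genes tested were called, so that counts of 0 in lists of this size set none of them apart. Of 11 genes of peptide loading and quality control in the endoplasmic reticulum 0 were called, with Calr at a log2 fold change of 0.10 ± 0.14 and Canx at 0.06 ± 0.12. Among 16 genes of interferon receptors and signalling 0 were called. Calls were also 0 among 8 proteasome activator and constitutive subunit genes, 10 promoter factors and 10 genes of class II processing.

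A pair of genes of these lists passed the test, in opposite directions. Fcgrt, the heavy chain of the neonatal Fc receptor, which also pairs with B2m, rose by a log2 fold change of 0.95 ± 0.24 (21.2 to 41.5 CPM, edgeR adjusted p = 0.0446). Cxcl10, a chemokine induced by interferon, fell from 55.5 to 11.7 CPM (log2 fold change -2.24 ± 0.33, edgeR adjusted p = 0.0035). It was the only called gene of 28 tested interferon-induced genes.

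Ago2-bound RNA was compared between treatments in the same way. Of 18 members tested none was called, where 0.371% of 9443 genes were (0.339% higher and 0.0318% lower). At an unadjusted p under 0.05 there were 9 members, all higher with miR-17-5p, where 1899 of the 9443 genes passed that threshold, and DESeq2's Wald test called 4, where it called 13.8% of all genes tested. In 5 members the groups did not overlap, all higher, where 17.8% of all genes tested were higher and 3.19% lower without overlap. The median over the 18 was a log2 fold change of 1.75, or 1.64 with the 5 genes at 0 in controls set at their bound, and 0.27 over all genes tested. Most of these genes could be tested only through counts in the treated group, so count and median describe and support nothing.

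B2m was one of 5 members with counts in every Ago2 library. It had 82.8, 150 and 63.8 CPM in control replicates 1, 2 and 3 and 250, 216, 201 and 278 CPM in miR-17-5p replicates 2, 4, 5 and 6. All treated libraries lay above all controls, with a log2 fold change of 1.26 ± 0.34 (edgeR adjusted p = 0.0725). Over the alternatives the adjusted p ran from 0.0186 to 0.298, and without control replicate 2 the log2 fold change was 1.69 with an adjusted p of 0.0351.

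Cd74 was at 0 in all 3 control Ago2 libraries and at 16.4, 13.4, 14.9 and 29.5 CPM with miR-17-5p. Set against a floor of 3 counts per control library, it was at least 48.7-fold higher (edgeR adjusted p = 0.0725). It was the only member at 0 in every control Ago2 library with counts in every treated one, a pattern of 613 genes in the table. RT1-M3-1 had 1 count over the controls, in replicate 2, and 19.1, 35.4, 5.61 and 31.8 CPM with miR-17-5p. Its pooled ratio of 634 had a 95% exact interval of 113 to 25061, which covers counting error only. Without control replicate 2 the edgeR adjusted p of both Cd74 and RT1-M3-1 was 0.0386. Leaving out that replicate removes the only control count of RT1-M3-1. Both genes could be tested only through counts in the treated group, so these adjusted p support nothing.

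Other genes had counts in part of the treated Ago2 libraries. Psmb8 was at 0 in controls and at 1.95, 0, 2.58 and 31.5 CPM with miR-17-5p, so replicate 6 held nearly all of it. Psmb9 was at 0 in controls and in miR-17-5p replicate 5, and reached 10.0 CPM in replicate 4. RT1-N3, a nonclassical class I gene, was at 0 in controls and at 0, 11.2, 3.70 and 3.50 CPM, and RT1-CE14 at 1.87, 0, 1.35 and 3.00 CPM over controls at 0. In each case 1 treated library shared the 0 of the controls.

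Heavy chains with counts in control Ago2 libraries varied too much there to be compared. RT1-A2 had 36.0, 16.5 and 0 CPM in controls and 17.9, 10.0, 11.1 and 26.0 CPM with miR-17-5p. RT1-CE5 had 46.5, 0.13 and 24.5 CPM in controls and 6.86, 6.90, 10.5 and 26.8 CPM with miR-17-5p. Tapbp ranged from 11.2 to 140 CPM in controls and from 47.8 to 85.3 CPM with miR-17-5p. Erap1 had 85.2, 98.9 and 140 CPM in controls and 40.3, 51.6, 131 and 144 CPM with miR-17-5p, a log2 fold change of -0.24 ± 0.51.

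Leukocyte markers had a higher summed level with miR-17-5p in these libraries. Their summed level was 78.2, 298 and 0.753 CPM in control and 477, 528, 453 and 646 CPM in miR-17-5p Ago2 libraries. The control with 298 CPM, replicate 2, had 7 of the 16 markers at 0, and Cd74 at 0 like the other controls. All 12 markers tested lay above 0 and 1, Lcp1, was called. Of all 9443 genes tested 5574 lay above 0 and 0.371% were called. Any marker without control counts could be tested only through the treated group, so the marker directions support nothing. Controls had 7 to 14 of the 16 markers at 0 and treated libraries 1 to 4. The part of these cells, and of the lower number of genes detected in control Ago2 libraries, in the values of Cd74 and RT1-M3-1 was not tested.

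**Figure D4:**
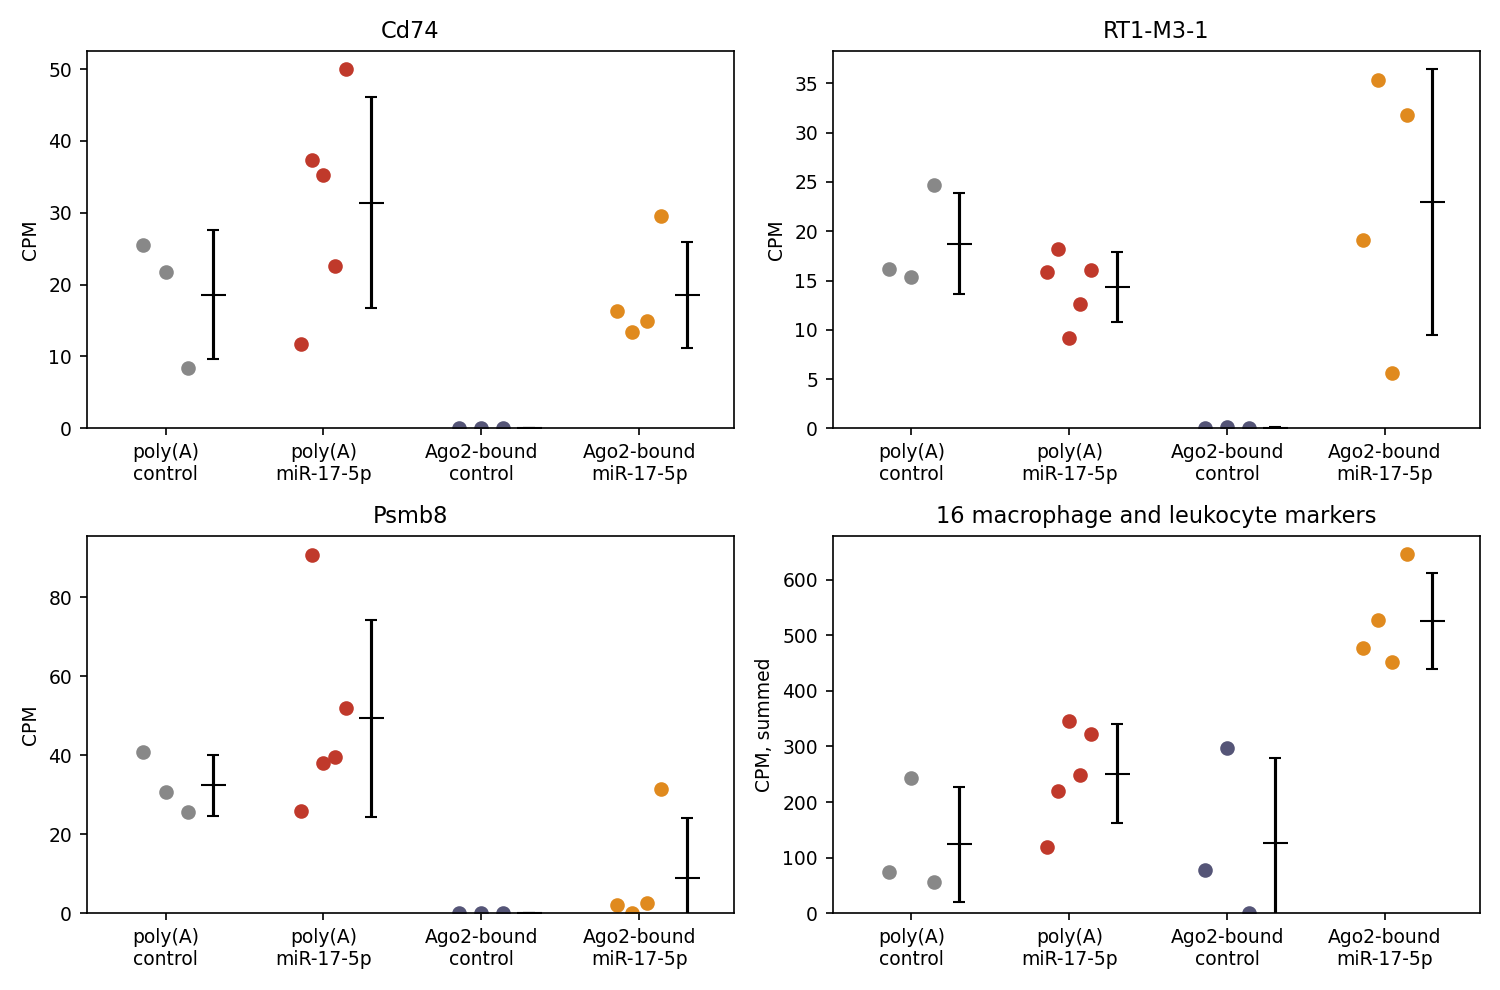
CPM of Cd74, RT1-M3-1 and Psmb8 and the summed CPM of 16 macrophage and leukocyte markers in each library, with mean and SD in black and SD bars cut at 0. Control Ago2 libraries hold no count of Cd74 or Psmb8, and Cd74 has 13.4 to 29.5 CPM in those with miR-17-5p.

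Whether the effect of miR-17-5p differed between Ago2-bound and poly(A) RNA was tested over all 15 libraries, which both comparisons above share. Of 31 members 9 were called, all with a larger effect in Ago2-bound RNA, where 13.4% of 11418 genes were called. These were the class I genes RT1-M3-1, RT1-A3, RT1-N3, RT1-CE14, RT1-CE10 and RT1-CE2, the subunits Psmb8 and Psmb9, and Cd74. All 9 had between 0 and 5 counts over the 3 control Ago2 libraries, 6 of them 0, so their fitted differences depend on the prior count. Limma-voom called 0 of them. B2m, with counts in every library, had a difference of 0.54 ± 0.39 on the log2 scale (edgeR adjusted p = 0.507).

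Ago2-bound RNA was then set against poly(A) RNA within each treatment, which asks which transcripts were over- or underrepresented with Ago2. In control cells 19 of 27 members were called, 1 higher and 18 lower, where 28.2% of 10170 genes were called (5.96% higher and 22.3% lower). The median log2 fold change was -7.24, or -3.44 with the 12 genes at 0 set at their bound, against -0.69 for all genes tested. Of the 19 called, 12 were at 0 in all control Ago2 libraries and 5 had 1 to 5 counts there in all, so they could be tested only through their poly(A) counts, and count and median describe and support nothing. Among all members 42 of the 59 genes (71.2%) were at 0 there, where 47.0% of all genes were. Without overlap, 23 members were lower and 1 higher, where 39.9% of all genes were lower and 12% higher. The 23 include genes tested only through their poly(A) counts, so this number supports nothing either. Leaving out control replicate 1 from both library types left 0 calls.

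Erap1 was the only member called higher in Ago2-bound RNA, in both treatments. In control cells it rose from 24.8 ± 3.6 to 96.7 ± 25.1 CPM (SD, n = 3 and 3), a log2 fold change of 1.96 ± 0.40 (edgeR adjusted p = 0.0138). With miR-17-5p it rose from 28.8 ± 5.0 to 79.8 ± 46.8 CPM (SD, n = 5 and 4), a log2 fold change of 1.47 ± 0.36 (edgeR adjusted p = 0.00637). Ago2-bound values lay above all poly(A) values in both, but the call was lost when any control replicate was left out, with edgeR adjusted p from 0.0509 to 0.0807, and in treated cells without miR-17-5p replicate 5 (adjusted p = 0.0621).

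B2m was lower in Ago2-bound RNA in both treatments. In control cells it fell from 697 ± 95 to 88.4 ± 39.7 CPM (SD, n = 3 and 3), a log2 fold change of -2.98 ± 0.37 (edgeR adjusted p = 0.00817). With miR-17-5p it fell from 996 ± 265 to 204 ± 25 CPM (SD, n = 5 and 4), a log2 fold change of -2.29 ± 0.23 (edgeR adjusted p = 1.23e-05). No Ago2 library reached the lowest poly(A) library, and without control replicate 1 the fold change in control cells was -2.93 with an edgeR adjusted p of 0.0619.

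Members without a count in control Ago2 libraries were at least 116-fold lower there than in poly(A) RNA for Psmb8, 93.0-fold for Psmb9, 66.6-fold for Cd74 and 41.9-fold for RT1-A3, each against the floor of 3 counts per library. These bounds are larger for genes with more poly(A) counts. The loading gene Tapbp, at 115 ± 18 against 49.3 ± 65.1 CPM (SD, n = 3 and 3), was not called in control cells, and without control replicate 3, which had the high Ago2 value, it was, at a log2 fold change of -3.41.

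With miR-17-5p 12 of 28 members were called, 1 higher and 11 lower, where 43.5% of 10871 genes were called (21.7% higher and 21.8% lower). The median was -2.06, against -0.15 for all genes tested. Without overlap, 15 members were lower and 1 higher, where 25.7% of all genes were lower and 19.1% higher. Heavy chains were among the lower ones: RT1-A1 at -2.78 ± 0.52, RT1-A2 at -2.76 ± 0.32, RT1-CE5 at -2.65 ± 0.46 and RT1-S3 at -1.41 ± 0.46. Psmb8 (-2.83 ± 1.05), Psmb9 (-2.78 ± 0.84) and Tapbp (-0.64 ± 0.24) were lower too, as were RT1-Da, RT1-T24-3 and RT1-T24-4. RT1-A1, RT1-A2, RT1-CE5, RT1-T24-4 and B2m passed with any single replicate left out. RT1-T24-4 had 2 counts over the treated Ago2 libraries, so it could be tested only through its poly(A) counts and its call supports nothing. The calls of Psmb8 (without replicates 1, 2 or 5), Psmb9 (2 or 6), RT1-S3 (2 or 5), Tapbp (2, 5 or 6), RT1-T24-3 (5 or 6) and RT1-Da (6) were lost. The log2 fold change of Psmb8 was -5.24 without replicate 6 against -2.83 with all, and that of RT1-Da was -9.20 without replicate 5, against -5.06. RT1-Da had 7 counts in Ago2-bound RNA with miR-17-5p, all in replicate 5, and could be tested only through its poly(A) counts. Without replicate 5 its Ago2-bound group was at 0, so -9.20 depends on the prior count. The values and the call of RT1-Da support nothing.

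Some members did not pass in this comparison. Cd74 had a log2 fold change of -1.07 ± 0.41 (edgeR adjusted p = 0.0528, and 0.0133 to 0.196 over the alternatives). RT1-M3-1 had 15.3 ± 3.8 CPM in poly(A) and 19.5 ± 11.0 CPM in Ago2-bound RNA (SD, n = 5 and 4), a log2 fold change of 0.35 ± 0.46. It lay on the other side of 0 under limma-voom (-0.30) and without miR-17-5p replicate 4 (-0.06).

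**Figure D5:**
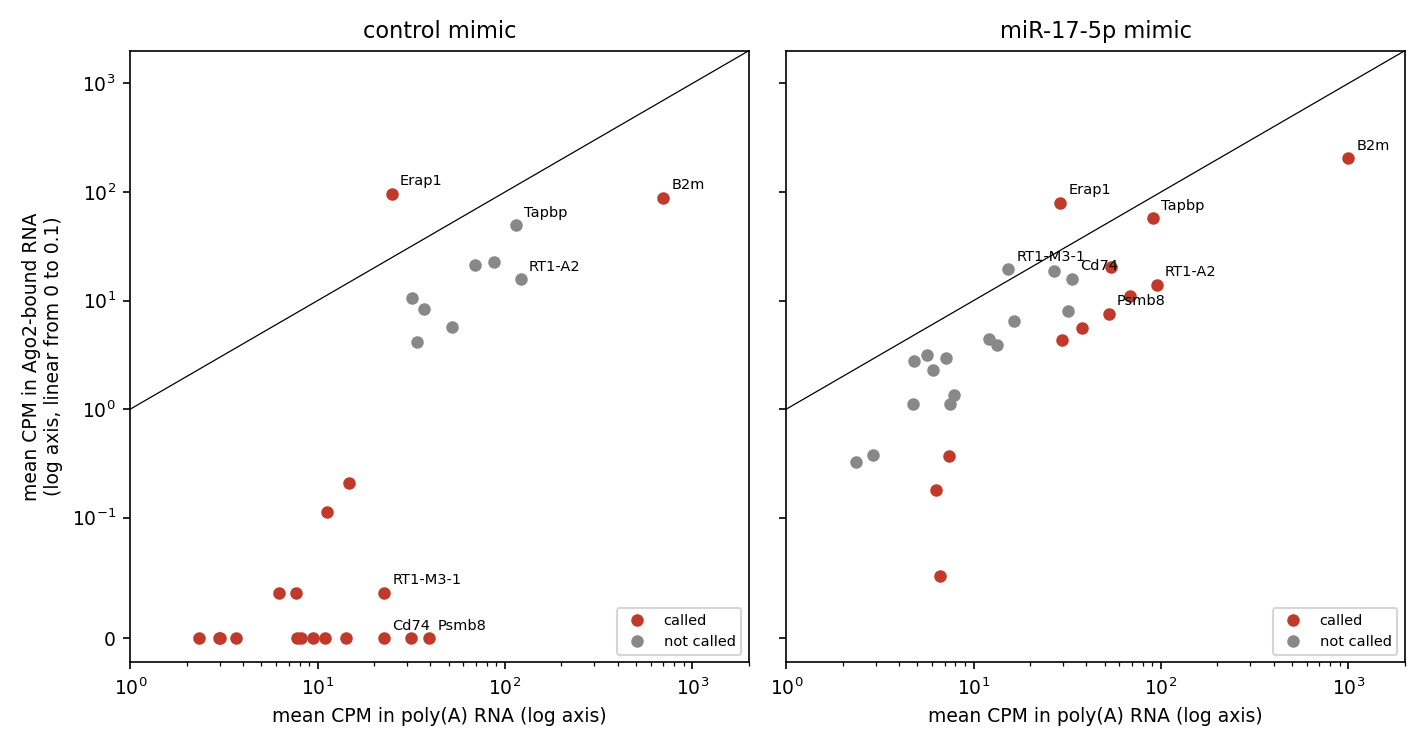
Mean CPM of each tested gene in poly(A) (horizontal) and Ago2-bound RNA (vertical, linear from 0 to 0.1) with the control mimic (left) and miR-17-5p (right), called genes in red and equal values on the line. Erap1 lies above the line in both panels and B2m below it, at 88.4 and 204 CPM in Ago2-bound RNA.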

How the data were processed

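Values are counts per gene, deposited by the authors, with no scaling. Alignment used TopHat2 2.0.10 with Bowtie2 on build rn5, and HTSeq did the counting, per the submitters' processing notes, which also list DESeq and edgeR. Versions of these others are not stated in the labels. Single-end libraries carried no strand information, per the labels' protocols, so reads of an antisense partner count for a gene too. Replicate numbers came from sample titles. The descriptions number most poly(A) libraries differently and give all 7 Ago2 libraries the same number, so which libraries share a culture is not certain, which bears on the replicate block and on leaving out a number from both library types.

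The test across all genes was that of edgeR 4.0.16 under R 4.3.3 (TMM, filterByExpr, robust two-sided quasi-likelihood tests, Benjamini-Hochberg over all genes tested, called at an adjusted p under 0.05), the source of adjusted p unless named otherwise. CPM use the TMM factors of their comparison, and single libraries those of their library type. Variation between replicates, as edgeR's common coefficient, came to 0.305 in poly(A) and 1.23 in Ago2-bound RNA. Fits with both library types assume 1 spread per gene. A group at 0 was set at 3 counts per library, which covers counting error only. Summary lines, at most 31.2% of a library for alignments that were not unique, stayed out of library sizes. Libraries of a group differed by more than sampling noise (chi-square per degree of freedom 6.78 to 323). Scripts were tested on simulated data of the treatment comparisons only, with variation capped far below the 1.23 of Ago2-bound RNA. How the test behaves at that variation was thus not examined.

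Members and lists were chosen with earlier results of these data known. Members called in any comparison, and the 12 with the largest mean CPM in poly(A) RNA, were to have values in every library; RT1-CE16 was added after its values were seen, and sparse ones are given by range. Up to 4 genes per list were named. Settings tried instead were other scaling factors (DESeq2, upper quartile), other filters (none, or mean counts of 50 or more), other tests (DESeq2 1.42.0, limma-voom of limma 3.58.1 with quality weights), blocking on the replicate number, and dropping single replicates.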

Additional observations from a re-analysis of the deposited data

Results flagged for a closer look

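Among 26 genes in 2 treated groups, 52 sets of values were checked for a library far from the others, and 7 were found. The critical values give about 5% of sets by chance for normally distributed values, which CPM with many zeros are not. A set with counts in a single library passes by construction. The rate expected by chance is thus not known here, and whether 7 of 52 exceeds it was not tested. In poly(A) RNA with miR-17-5p, RT1-A1 had 58.8 CPM in replicate 2 against 27.8 to 33.3 CPM in the others, and RT1-Ba had 11.3 CPM in replicate 6 against 1.67 to 3.71 CPM. In Ago2-bound RNA with miR-17-5p, Psmb8 had 31.5 CPM in replicate 6 against 0 to 2.58 CPM, and RT1-M6-2 had 6.48 CPM in replicate 4 against 0 to 0.833 CPM. RT1-CE15 (1.72 CPM, replicate 2), RT1-Da (0.785 CPM, replicate 5) and RT1-T24-4 (0.224 CPM, replicate 5) had counts in a single library of that group.

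The effect of miR-17-5p differed between Ago2-bound and poly(A) RNA for 9 of 31 members by edgeR. Over all 11418 genes tested, 13% were called with a larger effect in Ago2-bound RNA and 0.394% with a smaller one. Limma-voom and the replicate block called 0 of the members. The fitted differences on the log2 scale were 9.43 for Cd74, 9.08 for RT1-M3-1, 8.53 for Psmb8, 8.23 for Psmb9, 7.70 for RT1-N3, 7.07 for RT1-A3, 6.69 for RT1-CE14, 5.37 for RT1-CE2 and 4.54 for RT1-CE10. Each rests on 0 to 5 counts over the 3 control Ago2 libraries, so its size depends on the prior count and supports nothing. That of RT1-CE2 was 8.61 without control replicate 3.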

How the results depend on the processing

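In poly(A) RNA the number of members called was 0, against 1 with DESeq2's Wald test, 1 with limma-voom and 0 to 1 with a replicate left out. In Ago2-bound RNA it was 0, against 4 with the Wald test and 0 to 3 with a replicate left out; without control replicate 2 it was 3. For the difference between library types it was 9, against 0 with limma-voom, 0 with the replicate block and 3 to 8 with a replicate left out (5 when control replicate 1 was dropped, and 3 and 4 for treated replicates 5 and 6). For Ago2-bound against poly(A) RNA it was 19 in control cells, against 6 at a mean of at least 50 counts (fewer genes tested), 1 with the replicate block and 0 to 16 with a replicate left out, and 12 with miR-17-5p, against 7 to 15, 7 of them without miR-17-5p replicate 5. With the main settings 3.87%, 0.371%, 13.4%, 28.2% and 43.5% of all genes tested were called in these comparisons, in the same order. The share of all genes called changed with the setting too, as given above for the Wald test. These counts are therefore not read as results about the members alone, and the cause was not tested.

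Directions turned for Cd74 (-0.17), RT1-A1 (0.016) and RT1-M3-1 (0.10) in poly(A) RNA with the replicate block, for RT1-CE5 there (-0.083 to 0.31 with a replicate left out) and Erap1 in Ago2-bound RNA (-0.54 to 0.011), both when treated replicate 2 was dropped, and for RT1-M3-1 between library types with miR-17-5p (-0.30 with limma-voom, -0.055 to 0.62 with a replicate left out). None of these was called. Same-numbered libraries did not deviate together (correlations -0.25 to 0.064), and the numbers were not taken as pairs. With Ago2 libraries this variable, low correlations cannot show that pairing is absent. With the block Erap1 lost its call between library types in control cells (log2 fold change 1.94, adjusted p = 0.156) and with miR-17-5p (1.18, adjusted p = 0.0566), and B2m kept it in control cells (adjusted p = 0.00452). For miR-17-5p against control in Ago2-bound RNA no block could be fitted, since only 1 number is shared there. DESeq2 size factors moved the median of all genes from -0.69 to -0.87 between library types in control cells, from -0.15 to -0.26 with miR-17-5p and from 0.40 to 0.27 for the difference. At the depth of control Ago2 libraries 3 counts correspond to 0.224 to 0.717 CPM before TMM scaling and 0.193 to 0.564 CPM after it. Lower levels could be missed, although single counts were seen, such as RT1-CE5 at 0.13 CPM in replicate 2.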
